A study of Mus musculus with 2207 samples.

Results

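The comparison described here was that of the induced Ehmt1 transgene on a normal Ehmt1 background. Nuclei labelled Neuron in the table of the 384-well plates were taken for the iTg pool (220 excitatory neurons, 53 inhibitory neurons and 2 of neither class) and the WT pool (210, 73 and 2), 560 of the 2207 nuclei of the series. RNA of single nuclei from the cortex of C57BL/6 mice 14 weeks old was sequenced by a full-length total RNA method, and the nuclei of 3 mice were pooled for each genotype. The labels tied no nucleus to a mouse, so each genotype was 1 pool and no p-value could be given between iTg and WT. The iTg mice were Ehmt1+/+ and carried Ehmt1 iTg and CamKII-CreER. The WT mice of these plates were Ehmt1+/+ and carried Ehmt1 iTg too, without CamKII-CreER, so by the labels the pools differed in the CamKII-CreER allele together with the induction of the transgene. The effects of these alleles cannot be told apart. Legends of the study describe all its groups with CamKII-CreER, and the labels were followed here. The other pair of the same plates carried Ehmt1Δ/+ with Ehmt1 iTg, either without CamKII-CreER (Ehmt1Δ/+) or with it (Ehmt1Δ/+; iTg, 280 neurons). By the labels, tamoxifen had been given to the mice at an age of 3 weeks, in 2 doses of 100 mg/kg each.

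GLP, the product of Ehmt1, works as a heteromer with G9a (Ehmt2) and writes the repressive mono- and dimethylation of lysine 9 of histone H3. Loss of a copy of the human gene causes Kleefstra syndrome, a neurodevelopmental disorder. The iTg allele places FLAG-tagged Ehmt1 in the Rosa26 locus behind a stop cassette that Cre removes. CamKII-CreER is a tamoxifen-dependent Cre driven by the promoter of Camk2a, which is active in postnatal forebrain neurons, most strongly in the excitatory ones.

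The pools were read to a similar depth. The read total of a neuron, recovered from the deposited values, had a median of 392718 in WT (range 69711 to 1332269) and 397880 in iTg (54088 to 1289544). At that depth fewer genes had a value above 0 in an iTg neuron (median 13140, range 5393 to 18804) than in a WT neuron (median 14447, range 7172 to 20206), and iTg neurons lay under WT neurons of the same read total over most of the range. All WT neurons carried 1 code in their titles, while the iTg, Ehmt1Δ/+ and Ehmt1Δ/+; iTg neurons shared another, and what the code stands for is not given in the sources used here. Code and genotype cannot be told apart between WT and iTg. Well names did not separate the pools, since 356 names occurred in both and no 2 columns of the tables were identical. Neuronal identity was as labelled in both pools: the summed level of 12 neuron markers had a median of 1839 RPKM (reads scaled by exon length and by the read total) in WT and 1728 RPKM in iTg neurons, against 22.1 and 27.1 RPKM in oligodendrocytes. Summed oligodendrocyte markers in neurons had medians of 8.28 and 9.0 RPKM, those of microglia 8.44 and 6.92 RPKM and those of astrocytes 26.1 and 28.4 RPKM, and vascular markers were at a median of 0 in both pools.

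**Figure D1:**
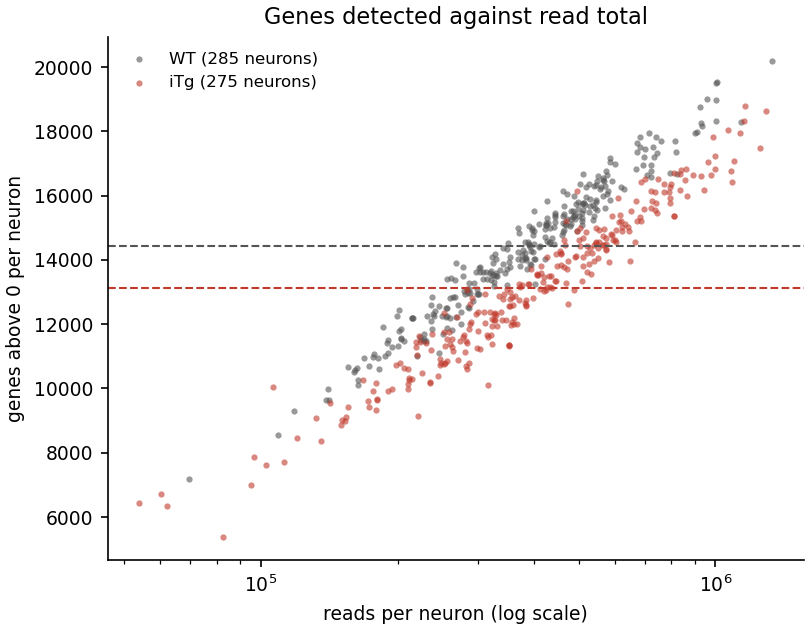
Genes with a value above 0 in each neuron (vertical axis) against its read total (horizontal axis, log scale), for all 560 WT and iTg neurons, with a dashed line at the median of each pool. The medians were 14447 for WT and 13140 for iTg neurons, and most iTg points lie under the WT points of the same read total.

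The RNA level of Ehmt1 itself was nearly the same in the 2 pools. Ehmt1 (ENSMUSG00000036893, chr2:24789928-24919614, minus strand, GRCm38) had a mean of 19.5 RPKM in WT neurons (SD over nuclei 8.88, lowest 0, median 18.6, highest 68.9) and of 20.7 RPKM in iTg neurons (SD 9.59, lowest 1.28, median 19.02, highest 60.7). The ranges overlapped almost fully, and all neurons but 1, of the WT pool, had a value above 0. On the log2 scale of mean RPKM + 0.1, used for all ratios here, the iTg mean was 0.08 above WT, a 1.06-fold difference. The ratio stayed between 0.04 and 0.18 under every alternative of the computation. Excitatory neurons, those with more Slc17a7 than Gad1, had 18.7 RPKM in WT and 20.3 RPKM in iTg, while inhibitory neurons had 21.9 and 22.02 RPKM. In the pools labelled Ehmt1Δ/+ the means were 31.7 RPKM without and 33.9 RPKM with CamKII-CreER (log2 ratio 0.10). These levels lay above WT, as did the pool labelled Ehmt1Δ/+ of the 96-well plates (31.2 RPKM) above its WT pool (18.7 RPKM). The RNA level of Ehmt1 thus did not show the loss of a copy, while the study reported less GLP protein in Ehmt1Δ/+ than in WT brain. Which exons the deletion removes was not analysed here, and every value given below for an Ehmt1Δ/+ pool is that of the pool so labelled. These values count reads of the whole Ehmt1 exon model, in which transcripts of the endogenous gene and of the transgene are not separated. No value here reads the transgene alone, and protein was not measured in these nuclei. By antibody staining of brains with induced CamKII-CreER, the study reported FLAG-GLP in most cortical neurons. It also reported more total GLP in those neurons than in WT. Ehmt2, the gene of the partner enzyme G9a, was at 71.4 RPKM in WT and 66.8 RPKM in iTg neurons.

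Of the genes around the other alleles, Gt(ROSA)26Sor, the noncoding transcript of the Rosa26 locus, was above 0 in 94 WT and 98 iTg neurons, with means of 0.89 and 1.28 RPKM (log2 ratio 0.48). On the Ehmt1Δ/+ background its ratio was 1.18. Its neighbours Thumpd3 and Setd5 were at 1.82 and 13.8 RPKM in WT and at 1.45 and 12.6 RPKM in iTg neurons. Esr1 encodes an estrogen receptor, and the ER part of CreER is an estrogen receptor ligand-binding domain. Whether reads of CreER count toward mouse Esr1 was not tested. It was above 0 in 40 WT neurons (14.04%, exact 95% interval 10.2 to 18.6) and in 62 iTg neurons (22.5%, 17.7 to 27.95). These intervals overlap narrowly. Esr1 means were 0.10 and 0.18 RPKM. Camk2a, a kinase gene of excitatory neurons, had means of 153.3 and 185.5 RPKM. In excitatory neurons Camk2a was at 183.4 RPKM in WT and 214.9 RPKM in iTg, and in inhibitory neurons at 69.3 and 69.1 RPKM. None of these 6 genes of the transgene and driver loci was 2-fold apart.

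Arsi, the arylsulfatase gene next to Camk2a, had the highest ratio of iTg to WT among the genes compared. It lies at chr18:60911780-60918561 on the plus strand and ends 7.06 kb before the start of Camk2a (chr18:60925618-60988152, same strand). In WT neurons Arsi was above 0 in 17 (5.97%, exact 95% interval 3.51 to 9.38), with a median of 0, a highest value of 76.2 and a mean of 0.64 RPKM. In iTg neurons it was above 0 in 49.8% (95% interval 43.8 to 55.9), with a median of 0, a highest value of 84.3 and a mean of 5.64 RPKM. The intervals of the shares lie far apart, and the log2 ratio was 2.96 (7.80-fold). Without the 5 highest nuclei of each pool the means were 0.10 and 4.73 RPKM and the log2 ratio 4.61. The signal sat mainly in excitatory neurons, where 13 of 210 WT (6.19%, 3.34 to 10.3) and 57.7% of 220 iTg neurons (50.9 to 64.3) had Arsi above 0. Among inhibitory neurons the counts were 4 of 73 (5.48%, 1.51 to 13.4) and 9 of 53 (16.98%, 8.07 to 29.8), with overlapping intervals. Glia of the same pools gave the background: Arsi was above 0 in 0 of 69 WT oligodendrocytes, which allows a share of up to 4.35%, in 1 of 71 iTg oligodendrocytes, and in 0 of 16 WT and 0 of 20 iTg microglia. Glia were read at lower depth than neurons, with medians between 42058 and 54877 reads.

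The pair on the Ehmt1Δ/+ background shares no pool with the first and showed Arsi in the same way. It was above 0 in 32 Ehmt1Δ/+ neurons (10.46%, 7.26 to 14.4; mean 1.001 RPKM) and in 56.4% of 280 Ehmt1Δ/+; iTg neurons (50.4 to 62.3; mean 6.24 RPKM), a log2 ratio of 2.53. In the WT neurons of the 96-well plates Arsi was above 0 in 25 (9.88%; mean 0.35 RPKM). Arsi was thus frequent in both pools with CamKII-CreER and rare in these 3 pools without it. Other genes around Camk2a, looked up after the Arsi values had been seen, did not share the difference. Tcof1 was at 8.69 and 8.58 RPKM, Synpo at 19.5 and 21.4 RPKM, Rbm22 at 7.59 and 7.38 RPKM and Slc26a2 at 0.63 and 0.65 RPKM in WT and iTg neurons. Pdgfrb was at 0.34 and 0.48 RPKM, and Cdx1 had a value above 0 in 1 iTg neuron only.

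**Figure D2:**
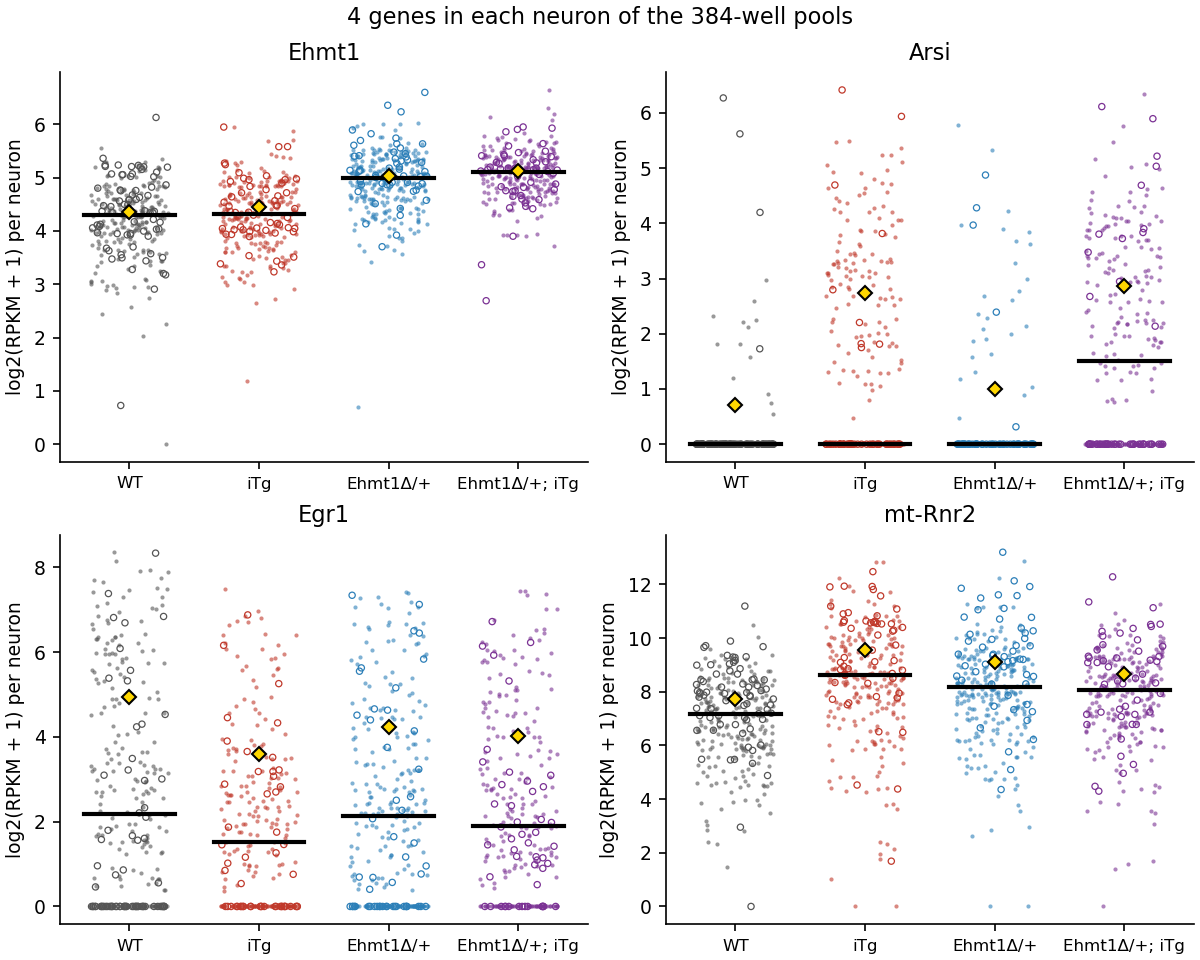
log2(RPKM + 1) of Ehmt1, Arsi, Egr1 and mt-Rnr2 in every neuron of the 4 pools of the 384-well plates; filled points are neurons not classed as inhibitory, open points inhibitory neurons, black bars medians over neurons and gold diamonds the log2 of the mean RPKM + 1. Arsi leaves 0 in 49.8% of iTg and 56.4% of Ehmt1Δ/+; iTg neurons but in 5.97% of WT neurons, Ehmt1 overlaps between WT and iTg, and the mt-Rnr2 median is 389.8 RPKM in iTg against 144.8 RPKM in WT.

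Across all genes the pools were close. Of 52636 genes, 24216 had a value above 0 in at least 10% of the neurons of either pool and are called tested here, although no statistical test is possible between 2 pools. Of these, 55 were 2-fold or more higher (0.227%) and 351 were 2-fold or more lower (1.45%) in iTg neurons, 1.68% either way. With the median of all tested genes set to 0 the shares were 0.31% higher and 0.942% lower. The median log2 ratio was -0.09, with 65.8% of genes under 0 and the middle 90% between -0.69 and 0.33. Lower calls were concentrated in weakly detected genes. Of 4997 genes with a mean level under 1 RPKM, 10 were higher and 3.06% lower, while of 2195 genes over 20 RPKM, 2 were lower and 12 higher, with a median of 0.01. Protein-coding genes made 71 of the lower and 21 of the higher calls among 12076 tested. Just inside the 2-fold limit stood 4732419C18Rik (1.01) and Gm47021 (-1.0), and just outside it Gm47988 (0.999) and Egr4 (-0.999). Among neurons with between 12128 and 15374 genes above 0, 150 of WT and 130 of iTg, 0.81% of genes were higher and 2.27% lower, and the median ratio was -0.05.

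**Figure D3:**
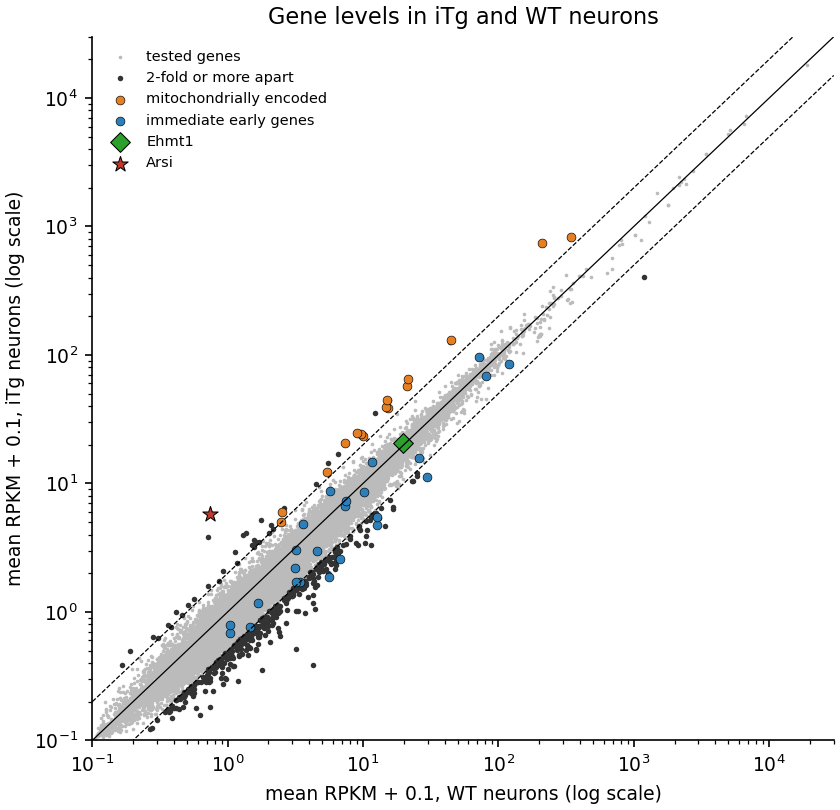
Mean RPKM + 0.1 over iTg neurons against that over WT neurons, on log axes, for the 24216 tested genes; the solid line marks equal levels, the dashed lines 2-fold, and dark points the 406 genes 2-fold or more apart. Arsi stands farthest above the diagonal (0.64 and 5.64 RPKM), mitochondrially encoded genes lie above the upper dashed line, and 5 immediate early genes lie below the lower one.

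All 17 tested genes of the mitochondrial genome were higher in the iTg pool. The 15 listed genes, 13 messenger RNAs of respiratory chain subunits and the 2 ribosomal RNAs, were each at least 2-fold higher, with log2 ratios between 1.01 and 1.83 and a median of 1.40, where 0.227% of all tested genes were higher. mt-Rnr2, the large ribosomal RNA, ranged from 0 to 2337 RPKM in WT neurons (median 144.8, mean 210 RPKM) and from 0 to 7373 RPKM in iTg neurons (median 390, mean 749 RPKM). The distributions overlapped, but the WT upper quartile, 282.7 RPKM, lay below the iTg median. mt-Rnr1, the small ribosomal RNA, had means of 344 and 833 RPKM and medians of 225.5 and 435.7 RPKM. mt-Co1, a subunit of cytochrome c oxidase, went with a mean of 44.2 RPKM in WT and 130.5 RPKM in iTg, mt-Nd1 of complex I with 21.3 and 64.4 RPKM, and mt-Atp6 of the ATP synthase with 14.9 and 44.1 RPKM. mt-Co1 was above 0 in 95.1% of WT and 94.9% of iTg neurons, close to the highest share possible. Less often detected members were above 0 in a larger share of iTg neurons, with mt-Nd3 in 27.7% of WT and 37.5% of iTg neurons and mt-Nd2 in 55.8% and 65.1%. Several mt RNAs have near-identical nuclear copies that could share their reads, and their values are uncertain to that extent.

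The respiratory chain genes of the nucleus did not follow. Of 35 tested, none was 2-fold apart, 29 had a ratio below 0 and 6 above, and the median was -0.15, next to -0.09 over all genes. Among all tested genes 65.8% had a ratio below 0. The mitochondrial share of the reads differed between the pools in glia as well: its median was 0.0540% in WT and 0.132% in iTg neurons, 0.172% and 0.696% in oligodendrocytes, and 1.29% and 1.49% in microglia. It was higher in inhibitory neurons (0.0956% in WT, 0.287% in iTg) than in excitatory neurons (0.0459% and 0.115%). Among the other pools it was 0.103% in Ehmt1Δ/+ and 0.0877% in Ehmt1Δ/+; iTg neurons. Between these 2 pools the 15 genes had a median log2 ratio of -0.71, lower with CamKII-CreER and opposite in sign to the pair on the normal background. In the 96-well WT neurons the share was 0.116%, and against that pool mt-Co2 (-1.11) and mt-Nd5 (-0.51) turned lower in iTg neurons. The part of this share in the other differences between the pools was not tested.

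Immediate early genes, which neurons transcribe within minutes of synaptic activity, leaned lower in iTg than in WT neurons of these plates. Of 26 listed, 24 were tested, with a median log2 ratio of -0.52 against -0.09 over all genes. A ratio below 0 was found for 20 and above 0 for 4, where 65.8% of all tested genes were below 0. Of the 24, 5 were 2-fold or more lower (1.45% of all tested genes were), and none was higher. Those 5 encode AP-1 and zinc finger transcription factors (Junb, Fos, Egr1), an antiproliferative cofactor (Btg2) and a MAP kinase phosphatase (Dusp1). The 250 bases before the start of 4 of them follow (RefSeq, GRCm38.p6, 5′ to 3′ on the strand of the gene), with TGACG and TGACGTCA, the core and the full cyclic AMP response element, in capitals. Egr1 is named only.
Fos, chr12:85473640-85473889, plus strand: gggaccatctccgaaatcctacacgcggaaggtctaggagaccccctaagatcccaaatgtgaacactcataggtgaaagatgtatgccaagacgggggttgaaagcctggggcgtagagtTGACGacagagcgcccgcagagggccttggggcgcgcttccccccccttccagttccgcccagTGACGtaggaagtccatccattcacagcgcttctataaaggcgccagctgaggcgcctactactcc
Junb, chr8:84978749-84978998, minus strand: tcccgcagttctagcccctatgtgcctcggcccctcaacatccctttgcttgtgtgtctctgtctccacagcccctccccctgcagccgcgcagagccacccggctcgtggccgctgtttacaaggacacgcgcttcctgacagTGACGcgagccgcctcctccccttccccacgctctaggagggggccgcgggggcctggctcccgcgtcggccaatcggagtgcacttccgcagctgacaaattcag
Dusp1, chr17:26508473-26508722, minus strand: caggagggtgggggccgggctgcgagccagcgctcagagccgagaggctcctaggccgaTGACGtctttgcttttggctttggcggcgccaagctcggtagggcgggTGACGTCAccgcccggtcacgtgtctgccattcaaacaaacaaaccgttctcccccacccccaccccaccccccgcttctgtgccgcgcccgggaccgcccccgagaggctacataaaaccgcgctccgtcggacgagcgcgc
Btg2, chr1:134079156-134079405, minus strand: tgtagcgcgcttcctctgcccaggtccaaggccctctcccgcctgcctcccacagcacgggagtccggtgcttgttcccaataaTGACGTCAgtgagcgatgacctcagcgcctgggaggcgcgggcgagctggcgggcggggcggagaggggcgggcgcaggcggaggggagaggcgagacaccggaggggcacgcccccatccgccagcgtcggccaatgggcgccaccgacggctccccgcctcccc
The full TGACGTCA stood once in each of Dusp1 and Btg2, against 508 of 32851 windows of this length (1.55%). TGACG or its reverse complement was found 2 times in Fos, 1 time in Junb, 3 times in Dusp1 and 2 times in Btg2, and in 17.8% of all windows, where a full element counts as 2 such matches because it is its own reverse complement. The serum response element (CArG box), found in 1.47% of windows, had no match in these 4. Bases farther upstream and the promoter of Egr1 were not searched, so a lack of the element in these genes cannot be read from this. A match describes letters and not a bound site.

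Egr1 was above 0 in 70.5% of WT neurons (median 3.51, highest 327, mean 29.7 RPKM) and in 63.6% of iTg neurons (median 1.89, highest 180, mean 11.2 RPKM), a log2 ratio of -1.40. Fos, the AP-1 subunit used as an activity marker, was above 0 in 98 WT neurons (34.4%, exact 95% interval 28.9 to 40.2; highest 388, mean 12.6 RPKM) and in 64 iTg neurons (23.3%, 18.4 to 28.7; highest 128.6, mean 4.64 RPKM). Junb, another AP-1 subunit, was above 0 in 61.8% of WT neurons (55.8 to 67.4; mean 5.47 RPKM) and in 44.4% of iTg neurons (38.4 to 50.4; mean 1.77 RPKM). For Fos and Junb the intervals of the shares did not overlap, by a narrow margin for Fos. However, iTg neurons also had fewer genes detected in general, and the share of all tested genes with such intervals was not computed. Btg2 had means of 6.67 and 2.50 RPKM (42.5% and 26.9% of neurons above 0) and Dusp1 of 12.6 and 5.37 RPKM (56.1% and 48.7% of neurons), with log2 ratios of -1.38 and -1.21. Just short of 2-fold stood Egr4 (3.30 and 1.60 RPKM), Ier2 (1.37 and 0.66 RPKM) and Egr2 (3.12 and 1.60 RPKM).

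Not every member was lower. Per1, a clock gene also induced by activity, was at 72.2 RPKM in WT and 96.0 RPKM in iTg neurons, Nr4a2 at 5.61 and 8.65 RPKM, Egr3 at 11.5 and 14.5 RPKM and Fosl2 at 3.47 and 4.75 RPKM, none of them 2-fold apart. Arc, the dendritic regulator of AMPA receptors, had means of 118.7 and 85.1 RPKM but medians of 31.1 and 32.8 RPKM. Npas4, a factor that responds to calcium entry, had means of 25.7 and 15.7 RPKM and medians of 7.24 and 6.13 RPKM. The medians of Arc and Npas4 were thus near each other, while the median of Junb was 1.30 RPKM in WT and 0 in iTg neurons. Of the summed level of all 26 genes per neuron, the median was 210 RPKM in WT and 220 RPKM in iTg, the 90th percentile 956 and 785 RPKM, and the highest neuron 5102 and 3705 RPKM.

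In excitatory neurons Junb was at 6.88 RPKM in WT and 1.71 RPKM in iTg, Fos at 13.9 and 4.72 RPKM and Egr1 at 34.8 and 12.3 RPKM. In inhibitory neurons Egr1 was at 15.5 and 6.98 RPKM, Fos at 9.10 and 4.49 RPKM, Btg2 at 1.63 and 0.89 RPKM and Dusp1 at 3.91 and 2.36 RPKM, lower in iTg in mean, while Junb was at 1.55 and 2.08 RPKM. A few nuclei carried much of these inhibitory means: without the 5 highest of each pool Fos was at 0.71 and 0.66 RPKM, and Egr1, above 0 in 30 of 73 and 26 of 53 neurons, at 4.67 and 2.20 RPKM. In the pair on the Ehmt1Δ/+ background the list had a median of -0.60, and Egr2 (-1.13), Nr4a3 (-1.24) and Egr4 (-0.90) stood lower with CamKII-CreER there, while Egr1 (-0.24), Btg2 (-0.05) and Dusp1 (-0.25) differed little. The Ehmt1Δ/+ pool, without CamKII-CreER but with the title code of the iTg pool, was also below WT for several of these genes. Its log2 ratios to WT were -0.73 for Egr1, -0.81 for Fos, -0.74 for Junb and -0.97 for Btg2, with a list median of -0.17. A drop from WT was thus not particular to iTg neurons for these named genes. Against the WT neurons of the 96-well plates, where Egr1 had a mean of 10.4 RPKM, the list's median was 0.36, so its sign turned with the choice of WT pool. The mean of log2(RPKM + 1) per neuron gave -0.16. Activity-regulated effector genes, which follow the early genes, had 20 tested members with a median of 0.12 and none 2-fold apart. Their upper end was Pim1 (0.32 and 0.71 RPKM), Pcsk1, a prohormone convertase (3.55 and 6.68 RPKM), and Homer1, a postsynaptic scaffold (15.3 and 24.1 RPKM), and Bdnf was at 1.24 and 1.69 RPKM.

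The share of neuron classes differed a little between the pools. Excitatory neurons made 210 neurons in WT (73.7%, exact 95% interval 68.2 to 78.7) and 220 in iTg (80%, 74.8 to 84.6), and inhibitory neurons 73 (25.6%, 20.7 to 31.1) and 53 (19.3%, 14.8 to 24.4), with overlapping intervals. Of the 21 inhibitory neuron genes, 15 had a ratio below 0 and 6 above, with a median of -0.28 and none 2-fold apart. The Ehmt1Δ/+ pool, without CamKII-CreER, was also below WT, with a median log2 ratio of -0.674 for this list. Inhibitory neurons made 16.99% of Ehmt1Δ/+ neurons (12.96 to 21.68) and 17.86% of Ehmt1Δ/+; iTg neurons (13.55 to 22.86). A lower inhibitory level than in WT was thus not particular to iTg neurons, and its cause was not tested. Gad1 and Gad2, which make GABA, were at 14.5 and 9.98 RPKM in WT and 11.3 and 6.72 RPKM in iTg. Within inhibitory neurons alone Gad1 was at 55.2 RPKM in WT and 56.9 RPKM in iTg. The subclass calls within inhibitory neurons, by the highest of 4 markers, were 20 Sst, 16 Pvalb, 7 Vip and 20 Lamp5 neurons in WT and 20, 16, 5 and 9 in iTg. Reln, the extracellular glycoprotein of several interneuron types, was the 1 subclass marker called lower (15.8 and 7.34 RPKM, log2 ratio -1.09). Within inhibitory neurons Reln was at 41.1 and 31.9 RPKM and above 0 in 39 of 73 and 36 of 53.

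A single WT neuron decided that call. It had 1030 RPKM of Reln, where the next WT neuron had 459 RPKM, and without it the log2 ratio of Reln was -0.73. The same neuron had 1078 RPKM of Trp73, a p53 family gene, where the next WT neuron had 22.5 RPKM, and it was the highest WT neuron for Lhx5 too, a LIM homeobox gene, with 16 RPKM. Slc17a7, Gad1 and the neuronal marker Snap25 were at 0 in it. Trp73, Reln and Lhx5 are known together from Cajal-Retzius cells of the cortical surface. Trp73 had the lowest ratio of all tested genes (4.197 RPKM in WT, 0.28 RPKM in iTg, log2 ratio -3.49), and without this neuron the WT mean was 0.42 RPKM and the ratio -0.43. Trp73 and Lhx5 were looked up after their values had been seen. The numbers of genes 2-fold apart stayed close without the neuron, at 55 higher and 341 lower.

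Layer genes were mostly level. Otof, a calcium sensor gene of layer II/III on the list used, was 2-fold lower (23.1 RPKM in WT, 10.3 RPKM in iTg). In inhibitory neurons Otof was above 0 in 22 of 73 WT and 3 of 53 iTg neurons, while in excitatory neurons it was above 0 in 51 of 210 and 56 of 220, with means of 13.4 and 10.1 RPKM. Ccn2, a layer VIb marker, was at 2.04 RPKM in 37 WT neurons above 0 and at 0.78 RPKM with 28 iTg neurons above 0. Its log2 ratio of -1.29 fell short of 2-fold without the 5 highest nuclei of each pool (-0.68), was 0.03 in neurons of the middle numbers of genes detected, and was 1.70 in the pair on the Ehmt1Δ/+ background. The 4 layer lists had medians between -0.10 and 0.05. Excitatory neuron genes had a median of 0.06 over 15 members, with Slc17a7, the vesicular glutamate transporter, at 95.6 and 112.1 RPKM.

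**Figure D4:**
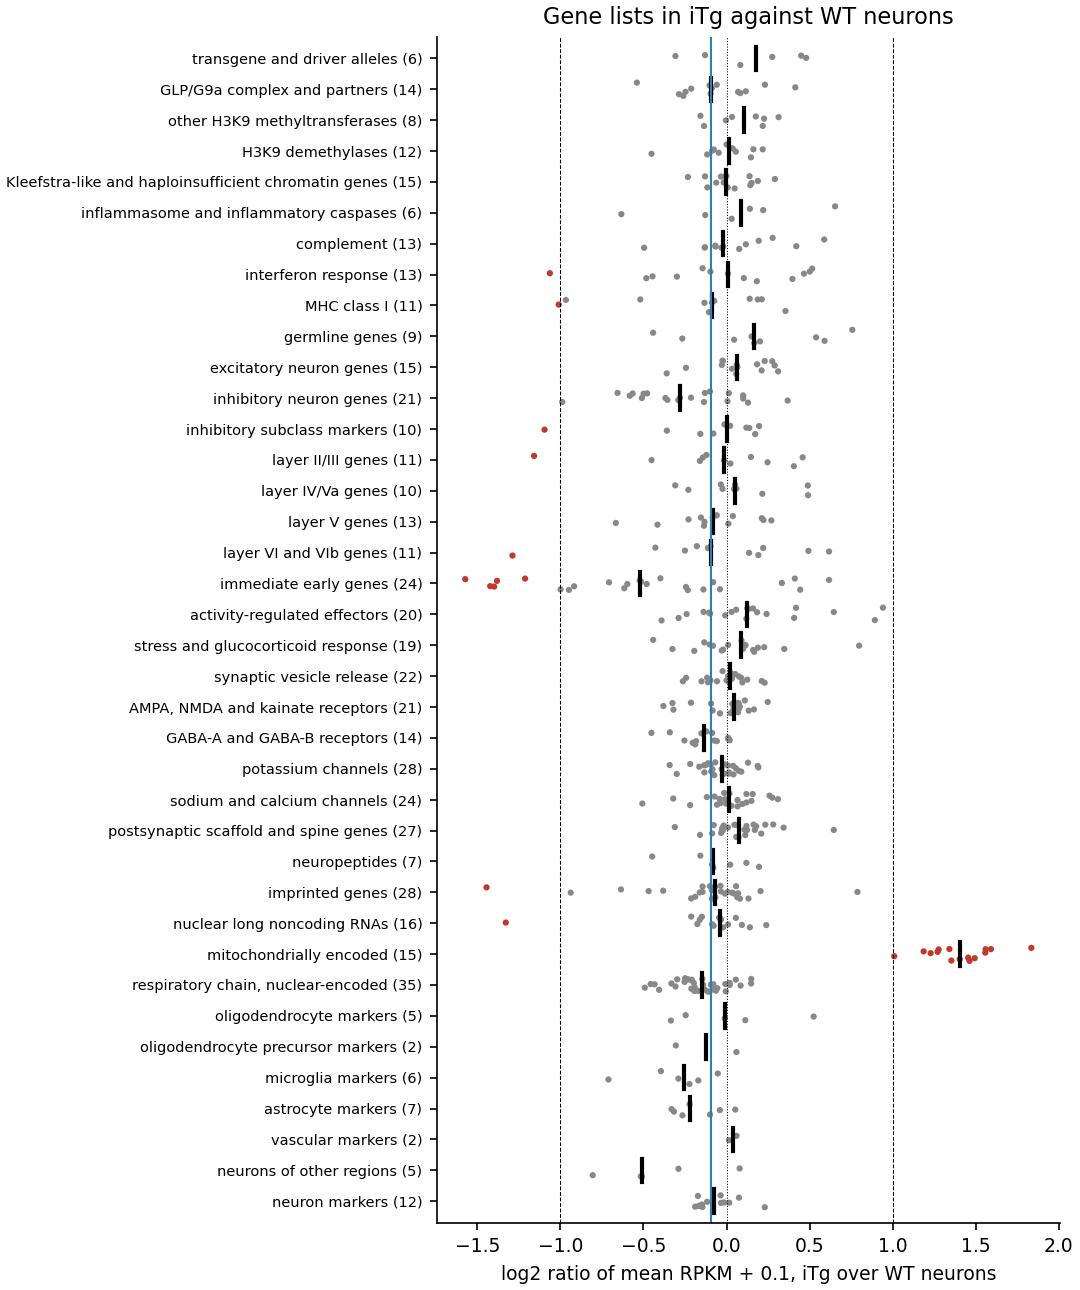
Log2 ratio of mean RPKM + 0.1, iTg over WT neurons, for the tested members of each gene list (number tested in brackets), with red points for genes 2-fold or more apart, black bars for list medians, dashed lines at 2-fold and a blue line at the median of all tested genes (-0.09). Mitochondrially encoded genes form a separate block around 1.40, immediate early genes spread down to -1.57, and most other lists sit around the blue line.

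Chromatin genes of the same pathway as Ehmt1 were level. The 14 tested genes of the GLP/G9a complex and its partners had a median of -0.09 and none was 2-fold apart. Wiz, a zinc finger subunit of the complex, was at 10.4 RPKM in WT and 8.77 RPKM in iTg, Cbx3, an HP1 protein that binds methylated H3K9, at 2.06 and 1.39 RPKM, and Cdyl, a reader of the same mark, at 1.72 and 2.04 RPKM. Among other H3K9 methyltransferases and their cofactor, Setdb1 was at 20.97 and 21.5 RPKM and Trim28 at 41.3 and 46.7 RPKM, and of 12 H3K9 demethylase genes Kdm4b was at 40.7 and 45.1 RPKM. Their list medians were 0.10 and 0.01. Germline genes, a class that H3K9 methylation keeps silent in somatic cells, had 9 tested members with a median of 0.17, in which Sycp2 and Brdt, of meiosis and spermatogenesis, were at 2.09 and 2.80 RPKM in WT and 2.33 and 2.90 RPKM in iTg.

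Casp1, the inflammatory caspase, was above 0 in 15 WT neurons (5.26%, exact 95% interval 2.98 to 8.53) and in 7 iTg neurons (2.55%, 1.03 to 5.17), with overlapping intervals. The intervals count nuclei within 1 pool each and are no test between genotypes, here and for every share given. Its means were 0.33 and 0.15 RPKM, and it was too rare to enter the tested set. Oligodendrocytes of the same pools had Casp1 above 0 in 0 of 69 (up to 4.35% allowed) and 0 of 71 (up to 4.23%), and these were read less deeply, at medians of 50371 and 54877 reads. Microglia, which use it, had 7 of 16 and 2 of 20. Of 19 inflammasome and inflammatory caspase genes only 6 were tested, with a median of 0.09 and none 2-fold apart. Pycard, the inflammasome adaptor ASC, was at 2.27 and 1.43 RPKM (log2 ratio -0.63), Il1rap at 6.33 and 5.79 RPKM and Il18 at 1.20 and 1.23 RPKM. Lower genes of the immune lists were Oas2, an interferon-induced antiviral enzyme, at 0.25 and 0.07 RPKM (log2 ratio -1.06, and -0.72 without the 5 highest nuclei of each pool), and Tap1, the peptide transporter of MHC class I loading, at 0.62 and 0.26 RPKM. The interferon and MHC class I lists had medians of 0.01 and -0.09.

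Genes of synaptic transmission and excitability were within 2-fold throughout. Synaptic vesicle release genes (22 tested) had a median of 0.02, glutamate receptors (21) of 0.05, postsynaptic scaffold and spine genes (27) of 0.07, potassium channels (28) of -0.03 and sodium and calcium channels (24) of 0.01. Unc13a, which primes vesicles, was at 146.4 RPKM in WT and 171.7 RPKM in iTg, and Grin1, the obligate NMDA receptor subunit, at 118.6 and 124.7 RPKM. GABA receptors (14) had a median of -0.14, with 11 members below 0 and 3 above, where 65.8% of all tested genes were below 0. The GABA-B receptor subunit genes Gabbr1 and Gabbr2, the members of the highest level, were at 48.6 and 51.1 RPKM in WT and 48.9 and 51.5 RPKM in iTg neurons.

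Beyond Arsi and the mitochondrial genes, few named genes were higher. Layn, a hyaluronan receptor gene, was above 0 in 15 WT neurons (5.26%, 2.98 to 8.53) and in 34 iTg neurons (12.4%, 8.72 to 16.9). Its means were 0.31 and 0.90 RPKM. The intervals did not overlap, at a low level, and the share of all tested genes with such intervals was not computed. Olfml2b, of an extracellular matrix family, was at 2.00 RPKM in WT and 4.68 RPKM in iTg. Among lower named genes of a low level, Zan, a sperm membrane protein gene, was at 0.64 RPKM in 34 WT neurons above 0 and at 0.08 RPKM in 10 iTg neurons. Gm22513, annotated as a small nuclear RNA, had a high level, 1185 RPKM in WT and 406 RPKM in iTg. Kank1, which links the cytoskeleton to adhesions, was at 0.86 and 0.20 RPKM, Slc10a1, a bile acid transporter gene of liver, at 1.36 and 0.42 RPKM, and Trpc7, a cation channel gene, at 2.31 and 0.90 RPKM. Lower noncoding genes were Rmst (2.19 and 0.81 RPKM) and Nespas, the antisense transcript of the imprinted Gnas cluster (0.81 and 0.23 RPKM). Counting was not stated to use strand, so Nespas cannot be told from transcripts of the opposite strand.

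The genes that the study listed as changed in Ehmt1Δ/+ neurons of the 96-well plates were read here as a list. Of those tested and listed as higher there, 1 was 2-fold higher and 4 lower in iTg neurons, with a median of -0.11. Of 534 tested that were listed as lower, 26 were higher and 18 lower, with a median of -0.18, where 0.227% and 1.45% of all tested genes were higher and lower. Of those 26, 16 lay on the mitochondrial genome and 9 were annotated pseudogenes, and the remaining one was Olfml2b. The mitochondrial share of the reads in the 96-well pools, on which the list was made, was 0.116% in WT and 0.0267% in Ehmt1Δ/+ neurons, so those members entered the list in pools that differed in it.

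The 2 transgene pairs were also fitted together, as a transgene term over 4 pools with the Ehmt1 genotype as a second term and 1 residual degree of freedom. By the labels this term sets the pools with CamKII-CreER and induction against those without, and all 4 carried Ehmt1 iTg. By limma with Benjamini-Hochberg adjustment none of 23827 genes was called (0%), 338 had an unadjusted p under 0.05 (1.42%), and the smallest adjusted p was 1. Arsi ranked first, with a log2 change of 2.74 (SE 0.26, p = 7.36e-05, limma adjusted p = 1), higher in both pairs. Fmo1, a monooxygenase gene, ranked next at -1.41 (SE 0.27, p = 0.00245, limma adjusted p = 1), on means of 0.27 and 0.07 RPKM in the first pair, where its log2 ratio was -0.26 without the 5 highest nuclei of each pool, and its ratio was 0.07 in excitatory neurons of that pair. Egr2 (-1.02), Fos (-1.04) and Junb (-1.09) were lower in both pairs with unadjusted limma p of 0.00727, 0.0140 and 0.0158, and none was called after adjustment. Egr1 and Btg2, called lower in the first pair, had ratios of -0.24 and -0.05 in the second. Of the 4 pools only WT carried the other title code, which the fit did not model, so a difference by code can enter this term. Leaving out genes detected in few neurons brought the smallest adjusted p, again that of Arsi, to 0.304 by limma, and no alternative called a gene. Ehmt1 had a term of 0.09 (SE 0.24).

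**Figure D5:**
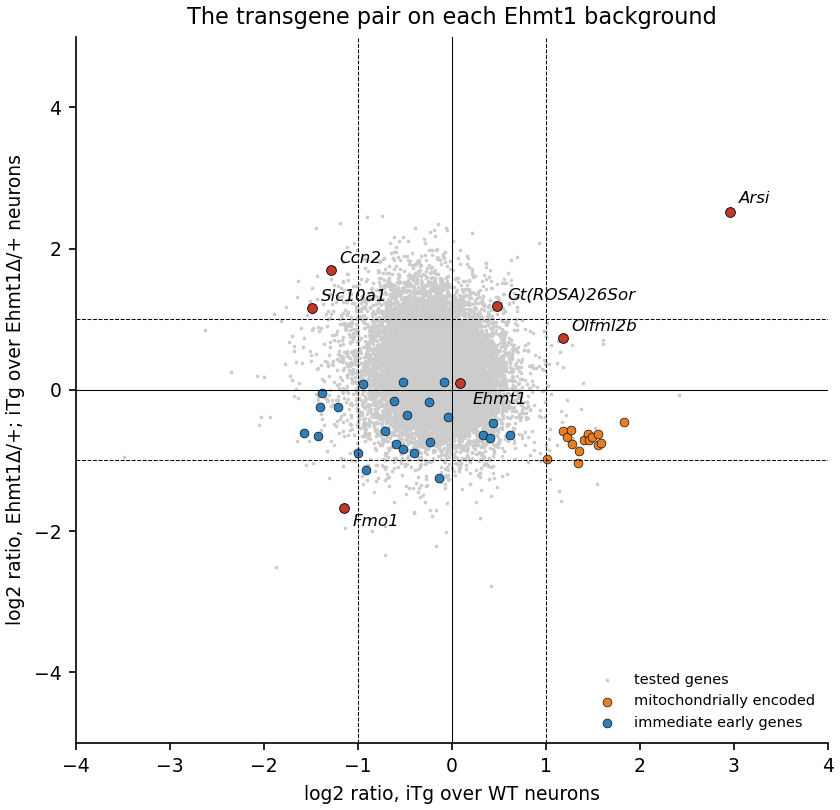
Log2 ratio of each tested gene between Ehmt1Δ/+; iTg and Ehmt1Δ/+ neurons (vertical axis) against that between iTg and WT neurons (horizontal axis), with dashed lines at 2-fold. Arsi is high in both pairs (2.96 and 2.53), mitochondrially encoded genes lie to the right and below 0, immediate early genes lie mostly at the lower left, and Ccn2 and Slc10a1 lie at the upper left.

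The calls of one background were seldom those of the other. Of the 55 genes higher in iTg than in WT neurons, 1 was 2-fold higher and 5 were lower in the other pair, which had 6.52% of its tested genes higher and 0.628% lower, and the 55 had a median of -0.58 there. Of the 351 lower genes, 65 were higher and 8 lower there, with a median of 0.40, where all 24216 genes had a median of 0.15. The gene shared as higher was Arsi.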

How the data were processed

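RNA of single nuclei from mouse cortex was sequenced by RamDA-seq, in which random primers copy total RNA over its full length. Per the labels and the study's methods, the authors trimmed reads, mapped them to mm10 with HISAT2 2.0.4, counted them over exons with featureCounts of Subread 1.5.0 and deposited RPKM values per gene and nucleus, with nuclei labelled by cell type. The study's figure legends describe all groups with CamKII-CreER. The labels do not, and were followed.

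From the deposited RPKM values, gene symbols were matched for 49035 of 52636 identifiers with and 3368 without their version, and exon lengths came from GENCODE M21. Read totals per nucleus were recovered from the steps of low values, and 26.5% of values above 0 were not whole reads within 0.01, so no count model was used. For each gene the mean RPKM over neurons of a pool was taken, and log2 of (mean + 0.1) compared, with 2-fold as the limit for a call. A fold on this scale understates the change of weak genes. Shares of neurons above 0 carry exact Clopper-Pearson 95% intervals, which cover counting error only. The transgene term was fitted with limma 3.58.1 (R 4.3.3) on the 4 pool means. Read totals, ratios, intervals and the limma fit were tested on simulated data. The simulated pool means for limma had the same spread for every gene, so they do not show how the fit performs on these pools. Python 3.11.15, numpy 2.4.6, pandas 2.3.3, SciPy 1.17.1 and matplotlib 3.10.9 were used.

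The comparison, the 39 gene lists and the tests were chosen with earlier results of these data known. Named genes were those of the transgene loci, markers, the 15 called genes ranking highest and the 15 lowest by the smaller of the ratios with and without the 5 highest nuclei, up to 4 called members of each list (2 of the highest level where none was called), 5 each way of the study's list and 5 each way of the transgene term. Predicted genes, pseudogenes and small RNAs were skipped (11 ranked as higher and 77 as lower). Other list members given beside them were chosen after their values had been seen.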

Additional observations from a re-analysis of the deposited data

Results flagged for a closer look

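Among the named genes, 3 were 2-fold apart in opposite directions in the 2 transgene pairs, and the difference between the pairs was not tested, since each pool is 1 sample. mt-Nd6 had a log2 ratio of 1.34 between iTg and WT neurons and of -1.03 between Ehmt1Δ/+; iTg and Ehmt1Δ/+ neurons. Slc10a1 had -1.48 and 1.16, and Ccn2 had -1.29 and 1.70. Without the 5 highest nuclei of each pool the first ratio of Ccn2 was -0.68, short of 2-fold. In WT, iTg, Ehmt1Δ/+ and Ehmt1Δ/+; iTg neurons, in that order, the means of mt-Nd6 were 9.52, 24.3, 21.2 and 10.3 RPKM. Those of Slc10a1, a bile acid transporter gene, were 1.36, 0.42, 0.72 and 1.74 RPKM, and those of Ccn2, a layer VIb marker, 2.04, 0.78, 1.57 and 5.33 RPKM.

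In oligodendrocytes, which the comparison did not use, 3 named genes were above 0 in a larger share of iTg than of WT nuclei. Their exact 95% intervals did not overlap. Only larger shares in iTg were searched for, among the named genes, and the share of all genes with such intervals was not computed. mt-Nd2 was above 0 in 46 of 71 iTg (64.8%, 52.5 to 75.8) and 26 of 69 WT nuclei (37.7%, 26.3 to 50.2). mt-Nd3 was above 0 in 20 of 71 (28.2%, 18.1 to 40.1) and 6 of 69 (8.70%, 3.26 to 18.0). Zbtb16, a zinc finger gene induced by glucocorticoids, was above 0 in 61 of 71 (85.9%, 75.6 to 93.03) and 42 of 69 (60.9%, 48.4 to 72.4), and in 26 of 46 Ehmt1Δ/+ and 65 of 67 Ehmt1Δ/+; iTg oligodendrocytes.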

How the results depend on the processing

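No paired analysis was possible because each genotype is 1 pool and the labels give no replicate numbers. Leaving out a pool leaves no comparison or no residual degree of freedom and was not run. The shares of tested genes 2-fold higher and lower, 0.227% and 1.45%, were 0.376% and 2.34% with a pseudocount of 0.01, 0.124% and 0.198% with 1, 0.0454% and 0.0991% with the mean of log2(RPKM + 1) per neuron, 0.144% and 0.289% with a filter at 25% of neurons and 1.73% and 4.27% with no filter. They were 0.566% and 3.73% in neurons of the middle read totals, 5.09% and 27.3% against the WT pool of the 96-well plates, and 0.81% and 2.27% in neurons of the middle numbers of genes detected, a setting chosen after seeing the data. Excitatory neurons alone gave 0.362% higher, leaving out the 5 highest nuclei 3.14% lower, and setting the median of all genes to 0 gave 0.942% lower. Against the 96-well WT pool the sign turned for mt-Co2 (-1.113), mt-Nd5 (-0.507), Junb (0.041), Egr1 (0.098), Fos (0.886), Ccdc187 (0.091), Otof (0.455) and Gm22513 (0.016). Ccn2 turned to 0.034 in neurons of the middle numbers of genes detected and Fmo1 to 0.067 in excitatory neurons. The cause was not tested for any of these. Of 42 named genes 2-fold apart, between 8 (mean of log2 values) and 42 (pseudocount 0.01) stayed so in the same direction. The Casp1 shares stayed within their intervals, and the transgene term called 0 genes by limma under each alternative run, with 160 to 1008 genes at an unadjusted p under 0.05. The number of neurons and their depth limit genes detected in few neurons, whose means rest on few reads.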
